A study of Mus musculus with 23 samples.

Results

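The genes described here are 10 of the 21938 protein-coding genes tested: the homeobox factors Gsx1, Gsx2, Nkx2-1, Dlx1, Dlx2, Dlx5 and Dlx6 of the ventral forebrain, and Gad1, Gad2 and Slc32a1, which make and package GABA. They were chosen by name, for the inhibitory fate that is the alternative to the glutamatergic identity of most early cortical neurons. The rule that chose them uses no measured value, but the genes were chosen with earlier results of these data known. Their transcription start sites (TSS) fall into 8 loci, because Dlx1 and Dlx2 lie 18.6 kb apart (TSS to TSS) and Dlx5 and Dlx6 lie 18.8 kb apart. For each gene, the peaks of H3K27ac and H3K27me3 within 5 kb of the TSS were taken as TSS peaks, and those over 5 kb and up to 100 kb away as distal peaks.

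Chromatin was immunoprecipitated from cells of the cerebral cortex of Tg(Ebf2-EGFP)FB58Gsat mouse embryos, all of which carried the transgene, sorted by EGFP fluorescence. Fluorescent (EGFP+) cells were taken at each of 3 stages, E11.5, E13.5 and then E15.5, and cells without fluorescence (EGFP-) at the earliest of them. EGFP is driven by regulatory sequence of Ebf2, so the EGFP+ cells are mainly preplate neurons at E11.5 and mostly Cajal-Retzius (CR) cells of layer 1 by E15.5, while the EGFP- cells at E11.5 are mostly progenitors. The sort was on EGFP alone, and each group may hold several cell types.

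In the embryonic telencephalon, inhibitory neurons arise from the ganglionic eminences on the ventral side and migrate into the cortex, while the cortex itself makes glutamatergic neurons under factors such as Emx2, Neurog2 and Tbr1. Gsx and Nkx2-1 factors set the ventral territories, Dlx factors act in their progenitors and young neurons, and Gad and Slc32a1 proteins carry out the GABAergic function. H3K27ac, a histone acetylation, marks promoters and enhancers in use, and H3K27me3, a methylation of the same residue, is laid down by Polycomb complexes, which often cover homeobox genes in cells that do not use them.

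A single peak list was deposited for each mark and cell group, 8 in all, so there is no replicate error, no difference between lists could be tested, and sequencing depth is unknown. Counts are therefore given beside the share of all protein-coding TSS marked in the same list, called the background. Lists ranged from 1386 to 102881 peaks, and the E11.5 EGFP- H3K27ac list, the shortest, belongs to 1 ChIP library where the other lists belong to 2. Of 8 CR cell marker genes, 7, 8 and 6 had a TSS peak of H3K27ac in EGFP+ cells by stage (E11.5, E13.5, E15.5). Ebf2, whose regulatory sequence drives the EGFP, and Calb2 had none at E15.5. The backgrounds of these H3K27ac lists were 49.9%, 60.9% and 52.3%. Neuronal marker genes had H3K27ac at 3, 2 and 3 of 4 TSS, and Dcx had a TSS peak in none of the 8 lists. Markers of other cells were listed too. Progenitor genes had H3K27ac at 5, 6 and 4 of 6 TSS in the same cells, microglial genes at 1, 3 and 2 of 4, endothelial genes at 0, 3 and 0 of 4, mesenchymal genes at 2, 3 and 1 of 4 and red blood cell genes at 0, 1 and 0 of 4. The lists of E11.5 EGFP- cells stood apart from the label of these cells. The list labelled H3K27ac marked 0 of 6 progenitor genes, 3 of 6 housekeeping genes (Actb, Ppia and Ywhaz) and 2 of 8 CR cell genes (Reln and Nhlh2). The list labelled H3K27me3 marked 4 of 6 progenitor genes and 4 of 6 housekeeping genes (Gapdh, Hprt, Ppia and Ywhaz). Whether the marks of this pair of lists are labelled the right way round cannot be told from the lists, so each value of E11.5 EGFP- cells, and each share built on it, holds for the list as labelled. Values of EGFP+ cells alone do not use these lists.

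The bases below are those at which peaks of several lists met at these genes, or, for Gad2, Gsx2 and Gad1, a single peak. They are shown because these short stretches, many of them in coding exons, carry the marks that the following paragraphs compare. Sequence is from the RefSeq genome GRCm38.p6, written 5′ to 3′ on the strand of the gene, with each CG dinucleotide in capitals. Only bases of annotated untranslated regions of transcripts were left out, so not every printed base is coding. Dlx2 (chr2:71545946-71546086, minus strand) and Dlx5 (chr6:6881748-6881886, minus strand) are the bases common to the H3K27ac peaks of EGFP+ cells at all 3 stages. Gsx1 (chr5:147188890-147188929, plus strand) is the stretch common to 5 lists. Dlx6 (chr6:6863715-6863941, plus strand), Nkx2-1 (chr12:56534716-56534869, minus strand) and Slc32a1 (chr2:158614623-158614809, plus strand) are common to H3K27me3 of E11.5 EGFP- cells and to both marks of E13.5 EGFP+ cells. Gad2 (chr2:22621966-22622121, plus strand) and Gsx2 (chr5:75076031-75076310, plus strand) are H3K27ac peaks of E11.5 EGFP+ cells, and Gad1 (chr2:70562337-70562487, plus strand) is part of an H3K27ac peak of E15.5 EGFP+ cells.
Gsx1: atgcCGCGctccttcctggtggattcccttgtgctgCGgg
Gsx2: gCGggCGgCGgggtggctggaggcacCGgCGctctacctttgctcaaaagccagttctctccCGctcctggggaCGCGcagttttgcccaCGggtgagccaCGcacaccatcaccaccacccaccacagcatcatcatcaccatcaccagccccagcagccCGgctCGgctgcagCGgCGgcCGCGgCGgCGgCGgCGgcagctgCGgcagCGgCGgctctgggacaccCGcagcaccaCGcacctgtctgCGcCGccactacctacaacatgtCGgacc
Nkx2-1: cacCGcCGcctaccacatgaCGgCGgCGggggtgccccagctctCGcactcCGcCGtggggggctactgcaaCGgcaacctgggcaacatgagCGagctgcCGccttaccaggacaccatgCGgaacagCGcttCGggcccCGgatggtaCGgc
Dlx2: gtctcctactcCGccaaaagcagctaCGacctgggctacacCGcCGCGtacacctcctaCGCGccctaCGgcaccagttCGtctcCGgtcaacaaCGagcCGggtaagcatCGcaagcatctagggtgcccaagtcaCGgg
Dlx5: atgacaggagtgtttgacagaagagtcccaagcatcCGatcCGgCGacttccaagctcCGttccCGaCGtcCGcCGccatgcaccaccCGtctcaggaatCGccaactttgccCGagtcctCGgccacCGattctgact
Dlx6: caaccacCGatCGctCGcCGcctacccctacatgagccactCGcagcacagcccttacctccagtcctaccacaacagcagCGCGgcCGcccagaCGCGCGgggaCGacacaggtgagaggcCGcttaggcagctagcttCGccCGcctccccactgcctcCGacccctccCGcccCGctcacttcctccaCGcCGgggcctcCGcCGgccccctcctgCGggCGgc
Gad1: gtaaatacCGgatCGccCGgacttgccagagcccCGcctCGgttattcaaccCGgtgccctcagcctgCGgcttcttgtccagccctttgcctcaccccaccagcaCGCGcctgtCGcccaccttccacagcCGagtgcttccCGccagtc
Gad2: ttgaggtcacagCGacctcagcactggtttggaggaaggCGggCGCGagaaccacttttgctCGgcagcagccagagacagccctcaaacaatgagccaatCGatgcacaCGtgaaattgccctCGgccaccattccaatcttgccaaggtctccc
Slc32a1: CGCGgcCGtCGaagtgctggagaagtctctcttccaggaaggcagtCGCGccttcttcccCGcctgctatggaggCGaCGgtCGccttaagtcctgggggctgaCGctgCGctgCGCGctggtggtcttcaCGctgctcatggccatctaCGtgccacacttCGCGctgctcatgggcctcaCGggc

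The printed stretches of Dlx2 and Dlx5 held 14 and 13 CG dinucleotides in 141 and 139 bases, or 1.06 and 1.11 times the number that their C and G content gives, the highest ratios among the stretches shown. In the 1001 bp around the TSS this ratio had a median of 0.72 over the 10 genes, against 0.55 over all 21938 TSS. It was highest at Gsx1 (0.87) and lowest at Gad1 (0.25), whose start in RefSeq lies elsewhere and gave 0.71. The homeodomain core TAATTA, searched on both strands, was in the 1001 bp windows of Dlx1 and Dlx2, 2 of 10 genes against 15% of all TSS. The E-box CAGCTG was in 3 of 10 windows (41.7% of all) and the E-box CAGATG in 2 of 10 (42.8% of all). Such matches describe the letters of these windows and are not evidence of binding.

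Marking at the TSS was compared across the cell groups to see whether the ventral and GABAergic genes carried the active or the repressive mark in cortical cells. In EGFP+ cells H3K27ac was listed at 7 of the 10 genes at E11.5 (background 49.9%), at 8 at E13.5 (background 60.9%) and at 3 at E15.5 (background 52.3%). The 3 genes of the E15.5 list were Dlx2, Dlx5 and Gsx1, and all of them had H3K27ac at both earlier stages, so that 3 of the 10 genes were marked at every stage (33.1% of all TSS). In E11.5 EGFP- cells H3K27ac was listed at 0 of 10 (background 4.17%). H3K27me3 was listed at 7 of 10 in E11.5 EGFP- cells (background 48.2%), and in EGFP+ cells at 1 at E11.5 (Dlx2, background 4.92%), at 4 at E13.5 (Dlx6, Gsx1, Nkx2-1 and Slc32a1, background 9.31%) and at 0 at E15.5 (background 1.06%). The share of the 10 genes marked was above the background for H3K27ac at E11.5 and E13.5 of EGFP+ cells. For H3K27me3 it was above in E11.5 EGFP- cells and, in EGFP+ cells, at E11.5 (1 gene) and E13.5. It was below for H3K27ac at E15.5 and, with 0 genes marked, for H3K27ac in E11.5 EGFP- cells and H3K27me3 at E15.5. None of these differences was tested. H3K27me3 was also listed at CR cell marker genes in EGFP+ cells, at 0, 3 and 1 of 8 by stage. Those of E13.5 were Trp73, Ebf2 and Ebf3. In sorted bulk cells, a mark carried by fewer cells and a weaker mark in each cell cannot be told apart. Gad1 weighs on these counts through its annotation. When a peak near any of the annotated starts of a gene was accepted, H3K27ac was listed at 9 genes at E13.5 (background 67.3%) and at 4 at E15.5 (background 56.4%), and H3K27me3 at 8 in E11.5 EGFP- cells (background 55.1%) and at 5 at E13.5 (background 13.1%).

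**Figure D1:**
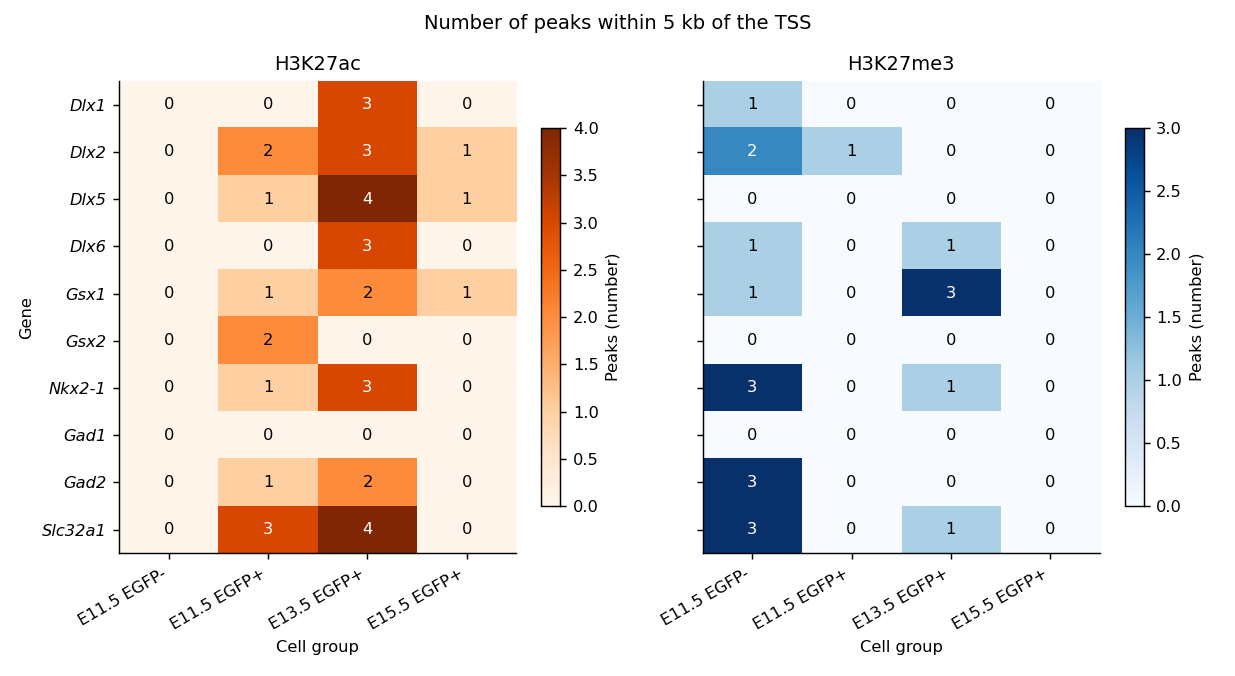
Number of peaks within 5 kb of the TSS (colour and printed number) of each of the 10 genes (rows) in each cell group (columns), for H3K27ac on the left and H3K27me3 on the right. H3K27ac peaks numbered 11, 24 and 3 over the genes in EGFP+ cells by stage, and those of E15.5 lay at Dlx2, Dlx5 and Gsx1, 1 peak each.

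The factors that set ventral territories differed from each other. Gsx1, a homeobox factor of ventral progenitors (chromosome 5, 147188696 to 147190947, plus strand), was marked in 5 of the 8 lists. H3K27ac was listed in a peak of 314 bp at E11.5, in peaks of 538 bp and 157 bp at E13.5 and in a peak of 262 bp at E15.5. H3K27me3 was listed in a peak of 529 bp in E11.5 EGFP- cells and in 3 peaks of 158 bp, 213 bp and 135 bp in E13.5 EGFP+ cells. Peaks of all 5 lists met at one site, from -45 to 562 bp relative to the TSS, over the start of the coding exon, and shared 48 bp there.

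Gsx2, its relative in progenitors of the lateral ganglionic eminence (chromosome 5, 75075601 to 75077893, plus strand), had TSS peaks in a single list. These were H3K27ac peaks of 280 bp and 220 bp in E11.5 EGFP+ cells, at 430 to 709 bp and 1524 to 1743 bp downstream of the TSS, both over coding sequence. The nearest H3K27ac peak lay 30.8 kb away at E13.5 and 30.7 kb away at E15.5, both upstream at the neighbouring gene Chic2. Gsx2 and 302 other protein-coding genes were marked in that list alone.

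Nkx2-1, which specifies the medial ganglionic eminence (chromosome 12, 56531958 to 56536908, minus strand), had both marks but not at E15.5. In E11.5 EGFP- cells H3K27me3 was listed in 3 peaks of 383 bp, 236 bp and 446 bp, spread from 801 to 3706 bp downstream of the TSS. In EGFP+ cells H3K27ac was listed in a peak of 184 bp at E11.5, at 396 to 579 bp, and in 3 other peaks of 161 bp, 208 bp and 202 bp at E13.5, from 2032 to 3713 bp. The E11.5 peak overlapped none of the later ones, so the gene was marked at both stages at different sites. The E13.5 peak of 161 bp overlapped an H3K27me3 peak of 197 bp from the same cells, over a coding exon.

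**Figure D2:**
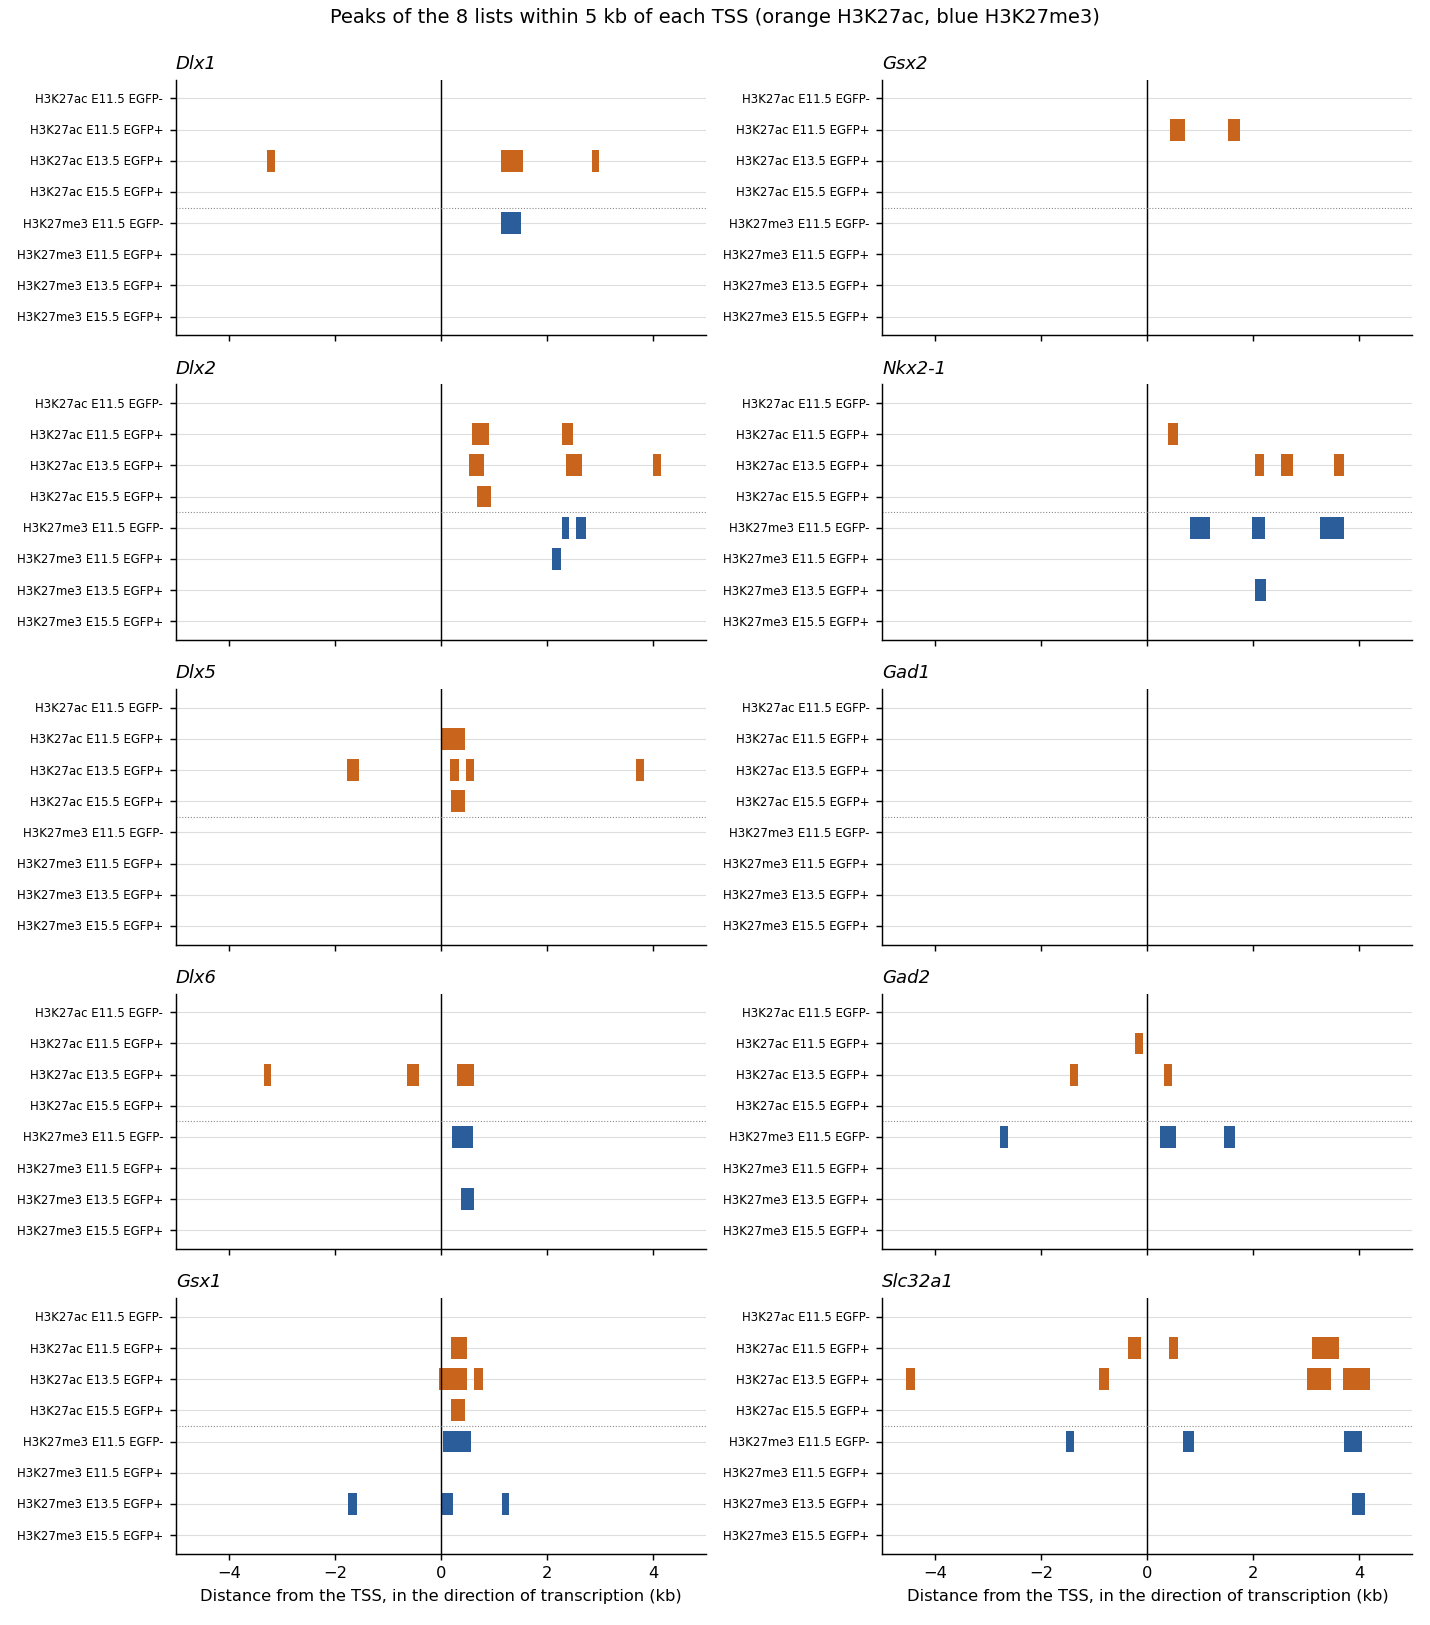
Peaks of the 8 lists around the TSS of each gene, a panel per gene and a row per list, against the distance from the TSS in kb (negative is upstream), with peak widths to scale. H3K27ac is orange and H3K27me3 blue, and most peaks lie downstream of the TSS, as at Dlx2, Gsx1 and Nkx2-1, while Gad1 has no peak at this 5′ end.

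The Dlx genes lie as convergent pairs, and the partners of a pair were marked unlike each other. Dlx2, which acts in ventral progenitors (chromosome 2, 71543408 to 71546754, minus strand), had H3K27ac in 2 peaks at E11.5 (310 bp and 215 bp), in 3 at E13.5 (276 bp, 292 bp and 142 bp) and in 1 at E15.5 (274 bp). A site over coding sequence, at 533 to 941 bp, held a peak of each stage, and the 3 peaks shared the 141 bp printed above. H3K27me3 was listed in peaks of 206 bp and 137 bp in E11.5 EGFP- cells and in a peak of 164 bp in E11.5 EGFP+ cells, all at 2092 to 2741 bp, towards the 3′ end of the gene. Dlx2 was the only one of the 10 genes with both marks in E11.5 EGFP+ cells, and there the marks did not overlap.

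Dlx1, the partner of Dlx2 (chromosome 2, 71528113 to 71533981, plus strand), had TSS peaks in 2 lists. These were 3 H3K27ac peaks at E13.5 (147 bp, 414 bp and 126 bp) and, in E11.5 EGFP- cells, an H3K27me3 peak of 382 bp that lay whole within the widest of the 3. Dlx1 overlaps the antisense gene Dlx1as, whose intron holds all 4 of these peaks, so a peak there cannot be given to a single gene. At E11.5 and at E15.5 the H3K27ac peaks of EGFP+ cells nearest to Dlx1 were those at Dlx2, 16.1 kb and 17.7 kb away.

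Dlx5, which acts in differentiating ventral neurons (chromosome 6, 6877805 to 6882085, minus strand), was the only one of the 10 genes with H3K27ac at all 3 stages and no H3K27me3 TSS peak in any list. Its H3K27ac peaks were 428 bp wide at E11.5, 241 bp, 174 bp, 148 bp and 140 bp at E13.5, and 261 bp at E15.5. A site at 21 to 449 bp, over the start of the coding sequence, held a peak of each stage. Dlx6, its partner (chromosome 6, 6863334 to 6868568, plus strand), had no H3K27ac TSS peak at E11.5 or E15.5. At E13.5 it had 3, of 126 bp, 222 bp and 321 bp, and an H3K27me3 peak of 231 bp that lay on the same bases as the widest of them. H3K27me3 in E11.5 EGFP- cells was listed at that site too, in a peak of 403 bp, over a coding exon of Dlx6 and the antisense gene Dlx6os1.

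The stretches between the partners are known to hold Dlx enhancers. Between the ends of Dlx1 and Dlx2 (chromosome 2, 71533982 to 71543407, 9426 bp) the E13.5 H3K27ac list held 3 peaks, of 209 bp, 130 bp and 142 bp, and those of E11.5 and E15.5 held 0. An H3K27me3 peak of 268 bp from E11.5 EGFP- cells covered the middle one whole. Between Dlx6 and Dlx5 (chromosome 6, 6868569 to 6877804, 9236 bp) there were 0 H3K27ac peaks in any list and 1 H3K27me3 peak, of 380 bp, in E11.5 EGFP- cells. The bases between Dlx1 and Dlx2 that both marks covered (chr2:71541427-71541556, plus strand) held 13 CG dinucleotides.
Dlx1/Dlx2 intergenic: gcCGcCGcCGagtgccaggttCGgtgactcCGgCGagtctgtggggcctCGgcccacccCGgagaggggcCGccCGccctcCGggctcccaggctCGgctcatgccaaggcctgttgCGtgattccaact

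Among the genes of GABA synthesis and transport, none had a TSS peak of H3K27ac at E15.5 by the annotated 5′ end. Slc32a1, the vesicular GABA transporter (chromosome 2, 158610767 to 158615748, plus strand), had 3 H3K27ac peaks at E11.5 (245 bp, 169 bp and 506 bp) and 4 at E13.5 (165 bp, 192 bp, 453 bp and 501 bp). H3K27me3 was listed in 3 peaks in E11.5 EGFP- cells (155 bp, 214 bp and 332 bp) and in 1 of 257 bp at E13.5. The widest E13.5 H3K27ac peak, at 3691 to 4191 bp over coding sequence, overlapped the E13.5 H3K27me3 peak and 1 of the 3 of E11.5 EGFP- cells, that of 332 bp. Gm14204 and Gm14205 lie on the opposite strand around the TSS. Slc32a1 was marked in the same 4 lists as 205 other protein-coding genes, and Nkx2-1 was 1 of them.

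Gad2, a glutamate decarboxylase that makes GABA at synapses (chromosome 2, 22622205 to 22693874, plus strand), had an H3K27ac peak of 156 bp at E11.5, upstream at -239 to -84 bp. At E13.5 it had peaks of 148 bp at -1460 to -1313 bp and of 152 bp at 317 to 468 bp, and neither overlapped the E11.5 peak. H3K27me3 in E11.5 EGFP- cells was listed in 3 peaks of 134 bp, 302 bp and 215 bp, of which the widest covered the E13.5 H3K27ac peak downstream of the TSS. At E15.5 the nearest H3K27ac peak was 273 kb from the TSS.

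Gad1, the other glutamate decarboxylase (chromosome 2, 70553072 to 70602014, plus strand), had no peak of any list within 5 kb of its annotated 5′ end, a state shared by 22.7% of all TSS. Its RefSeq start lies 9057 bp downstream, at 70562129, and peaks were listed there. In EGFP+ cells H3K27ac was listed in peaks of 131 bp at -2566 to -2436 bp and of 127 bp at 107 to 233 bp from that start at E13.5, and of 205 bp at 154 to 358 bp at E15.5. H3K27me3 was listed in a peak of 458 bp at 1152 to 1609 bp in E11.5 EGFP- cells. No H3K27ac peak of E11.5 EGFP+ cells lay within 5 kb of either start, and the nearest was 66.2 kb upstream of the 5′ end. By this start Gad1 had H3K27ac at E13.5 and E15.5 and not at E11.5. None of the other 9 genes had this order. By the annotated 5′ end, Lhx8, Six3, Aldh5a1, Neurod6 and the non-neural factor Myod1 of the gene lists below had it. The share of all TSS with this order is not given here.

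The states of the TSS summed up both marks. In E11.5 EGFP- cells 7 genes had H3K27me3 only (44.7% of all TSS), 3 had neither mark (51.1%), 0 had both (3.42%) and 0 had H3K27ac only (0.752%). In E11.5 EGFP+ cells 6 had H3K27ac only (46.4%), 1 had both (3.56%) and 3 had neither (48.7%). At E13.5, 4 had both marks (8.39%), 4 had H3K27ac only (52.5%) and 2 had neither (38.1%). At E15.5, 3 had H3K27ac only (51.5%), 7 had neither (47.4%) and 0 had both (0.752%). H3K27me3 without H3K27ac was listed at 0 of the 10 genes in each EGFP+ group, where it covered 1.37%, 0.925% and 0.305% of all TSS by stage. All 4 genes with H3K27me3 at E13.5 had H3K27ac there too (90.1% of all such TSS). Both marks were listed in 2 or more cell groups at 0 of the 10 genes (1.45%).

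Stages were then followed gene by gene. Of the 7 genes with H3K27ac in E11.5 EGFP+ cells, 6 had it at E13.5 (81.2% of all TSS marked at E11.5) and 3 had it at E15.5 (80.2%). Of the 8 with H3K27ac at E13.5, 3 had it at E15.5 (67.7%). Among the 7270 TSS whose widest E11.5 peak was 156 to 506 bp, the range of these genes, 75.8% had H3K27ac at E15.5. Of the 7 genes with H3K27me3 in E11.5 EGFP- cells, 5 had H3K27ac in EGFP+ cells at E11.5 (72.3% of all such TSS), 7 at E13.5 (82.2%) and 2 at E15.5 (73%). Of the same 7, 4 had H3K27me3 in EGFP+ cells at E13.5 (14.4%). These last shares rest on the E11.5 EGFP- list, and those between stages of EGFP+ cells do not.

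Overlap on the same bases was then counted peak by peak. Peaks at the 10 genes joined into 38 sites, of which 27 were listed once, 7 in at least 3 lists, and 8 with both marks in any cell groups. The E13.5 H3K27ac list, the longest with 102881 peaks, alone gave 13 sites. Sites were not joined over all TSS, so these counts have no background and are not read as a trait of the 10 genes. Of the 14 H3K27me3 TSS peaks of E11.5 EGFP- cells, 2 were overlapped by H3K27ac of E11.5 EGFP+ cells (43% of all such peaks at TSS), 9 by that of E13.5 (46%) and 1 by that of E15.5 (48.2%). Of the same 14, 4 were overlapped by H3K27me3 of E13.5 EGFP+ cells (5.25%). Of the 11 H3K27ac peaks at E11.5, 5 were overlapped at E13.5 (48.8%) and 3 at E15.5 (62%). All 3 H3K27ac peaks of E15.5 overlapped a peak of E11.5 (58.2%) and of E13.5 (53.1%). Of the 6 H3K27me3 peaks at E13.5, 4 overlapped H3K27ac of the same cells (53.4%).

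**Figure D3:**
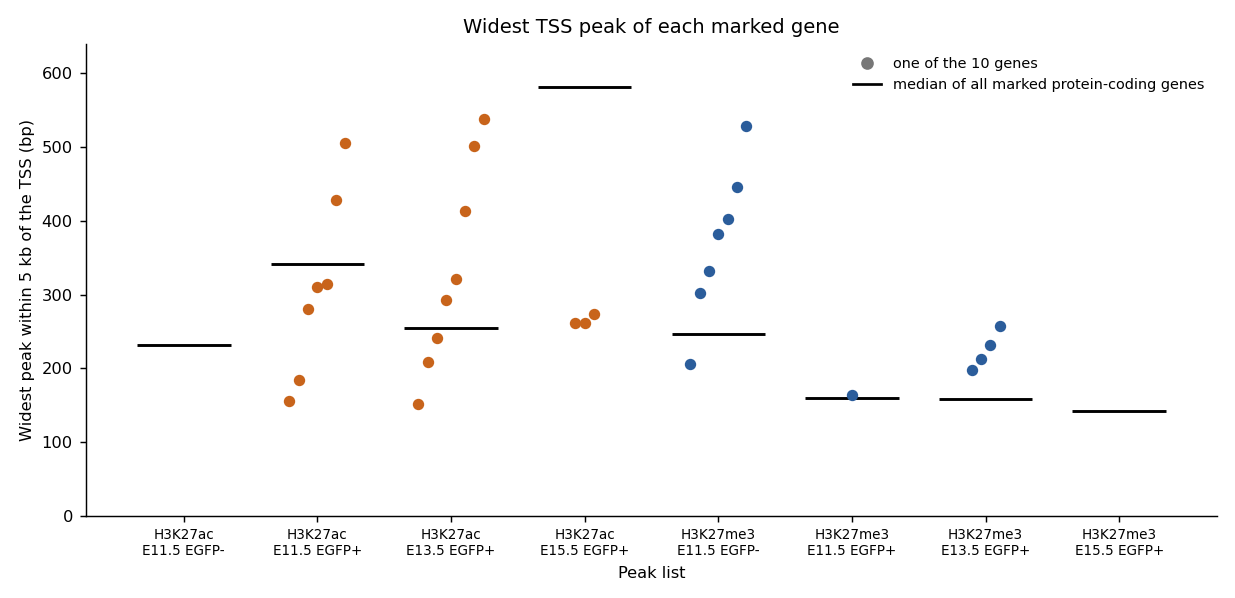
Width in bp of the widest peak within 5 kb of the TSS for each marked gene of the 10 (points), in each of the 8 lists, with the median of all marked protein-coding genes in that list (black bars). The 3 E15.5 H3K27ac points lie at 261 to 274 bp under a median of 582 bp, and the 4 E13.5 H3K27me3 points at 197 to 257 bp lie above a median of 158 bp.

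With all scores at 0, width is the only measure of size in the lists. The widest H3K27ac peak of a marked gene had a median of 310 bp at E11.5 (342 bp over all marked TSS), 306 bp at E13.5 (255 bp) and 262 bp at E15.5 (582 bp). For H3K27me3 the medians were 382 bp in E11.5 EGFP- cells (247 bp) and 222 bp at E13.5 (158 bp). Among peaks 300 bp wide or more, H3K27ac was listed at 4 genes at E11.5 (Dlx2, Dlx5, Gsx1 and Slc32a1, background 28.9%), at 4 at E13.5 (background 23%) and at 0 at E15.5 (background 42.6%).

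Gene lists of related and of unrelated function were counted in the same way. The H3K27ac backgrounds in EGFP+ cells were 49.9%, 60.9% and 52.3% by stage, and 33.1% of all TSS were marked at all 3 stages. Of 20 other transcription factors of ventral territories or interneurons, H3K27ac was listed in EGFP+ cells at 15, 20 and 11 by stage, and 9 were marked at all 3 stages (among them Lhx6, Sp8, Meis2, Maf, Olig1, Olig2 and Prox1). Some of these, such as Meis2 and Prox1, are also used by other neurons. Of 14 genes of GABA handling and interneuron peptides, 6, 10 and 5 were marked by stage, 4 of them throughout (Gphn, Gabbr1, Gabbr2 and Cck). The peptide gene Vip and the calcium-binding protein gene Calb1 had a TSS peak in none of the 8 lists. Of 15 dorsal glutamatergic genes, 13 were marked at each stage and 11 throughout, among them Emx2, Neurog2 and Tbr1. Slc17a8, a vesicular glutamate transporter, had a peak in none of the 8 lists. Of 12 transcription factors of non-neural lineages, 5, 10 and 1 were marked by stage and 0 throughout, and Gata1 was in none of the 8 lists. Of 6 housekeeping genes, 6, 5 and 6 were marked. The E13.5 list, the longest, also held 3 of 4 endothelial markers, and the part of other cell types in these counts was not tested.

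From E11.5 to E15.5, H3K27ac was kept at 3 of 7 of the 10 genes, against 80.2% of all TSS marked at E11.5. It was kept at 9 of 15 other ventral or interneuron factors and 4 of 6 GABA handling genes. Among glutamatergic genes it was kept at 12 of 13, and among non-neural factors at 0 of 5. These lists were chosen with earlier results of these data known, and no difference between them was tested. H3K27me3 in E11.5 EGFP- cells (background 48.2%) was listed at 18 of 20 other ventral or interneuron factors and 10 of 14 GABA handling genes. It was also listed at 11 of 15 glutamatergic genes and 10 of 12 non-neural factors. At E13.5 H3K27me3 was listed at 8 of 20 other ventral or interneuron factors (among them Sp9, Six3, Npas1, Maf, Olig1, Olig2 and Nkx2-4), 1 of 14 GABA handling genes, 3 of 15 glutamatergic genes, 3 of 12 non-neural factors and 0 of 6 housekeeping genes. The background of the E13.5 list was 9.31%. H3K27me3 counts of E11.5 EGFP+ cells were 2 of 20, 2 of 14, 0 of 15, 0 of 12 and 1 of 6. The housekeeping gene marked was Ywhaz (background 4.92%). At E15.5 the counts were 0 of 20, 0 of 14, 1 of 15, 1 of 12 and 1 of 6 (Tbp, background 1.06%).

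**Figure D4:**
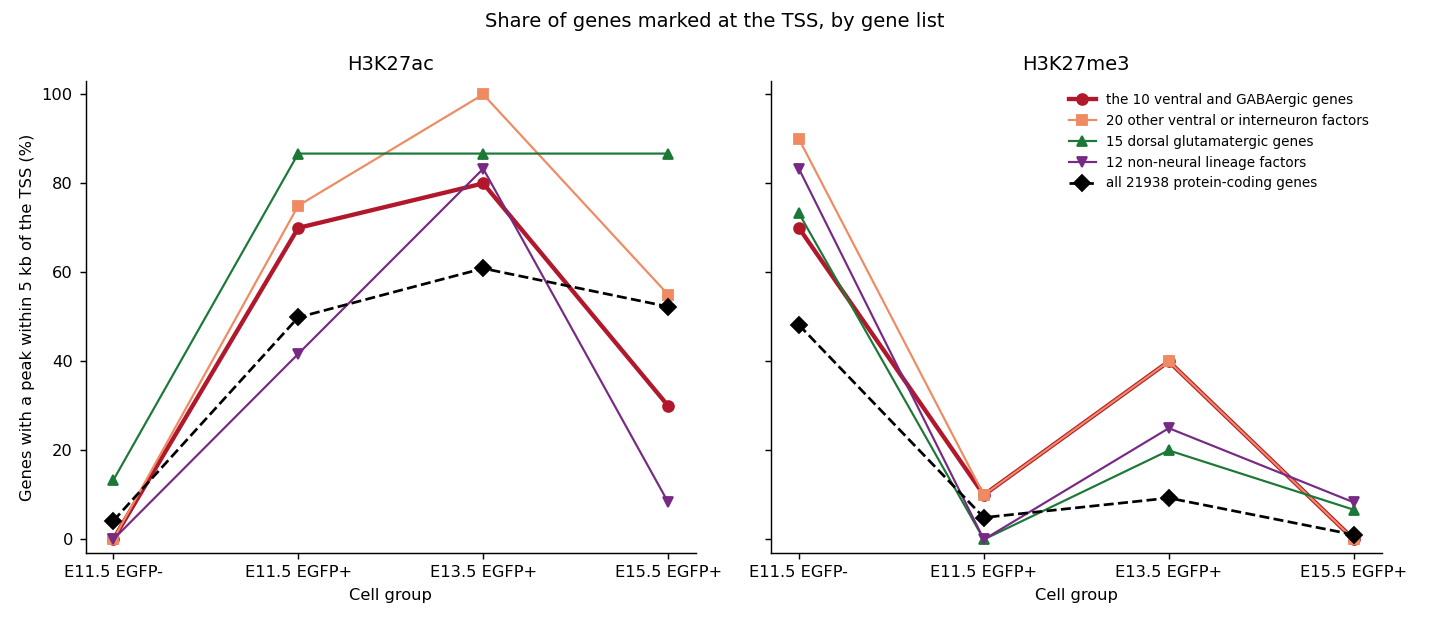
Percent of the genes of each list with a peak within 5 kb of the TSS, by cell group, for H3K27ac (left) and H3K27me3 (right), with all 21938 protein-coding genes as a dashed line. The 10 ventral and GABAergic genes stand at 70%, 80% and 30% for H3K27ac in EGFP+ cells, and the dorsal glutamatergic genes at 86.7% at each stage.

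Distal peaks were counted up to 100 kb either side, where enhancers of these genes may lie. In EGFP+ cells at least 1 distal H3K27ac peak was listed for 10 of 10 genes at E11.5 (background 85.7%), 10 of 10 at E13.5 (background 96.8%) and 9 of 10 at E15.5 (background 80.1%). The median number per gene was 3, 9.5 and 3.5 by stage, against 4, 10 and 3 over all genes. Distal H3K27ac at E15.5 was thus close to the background in number, where TSS marking was below it. In E11.5 EGFP- cells there was no distal H3K27ac peak at any of the 10 genes (background 14.2%). Distal H3K27me3 peaks were listed for 9 genes in E11.5 EGFP- cells (background 90.7%), with a median of 4.5 against 5 over all genes, and for 3, 5 and 3 genes in EGFP+ cells by stage (backgrounds 47.8%, 48.1% and 13%).

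**Figure D5:**
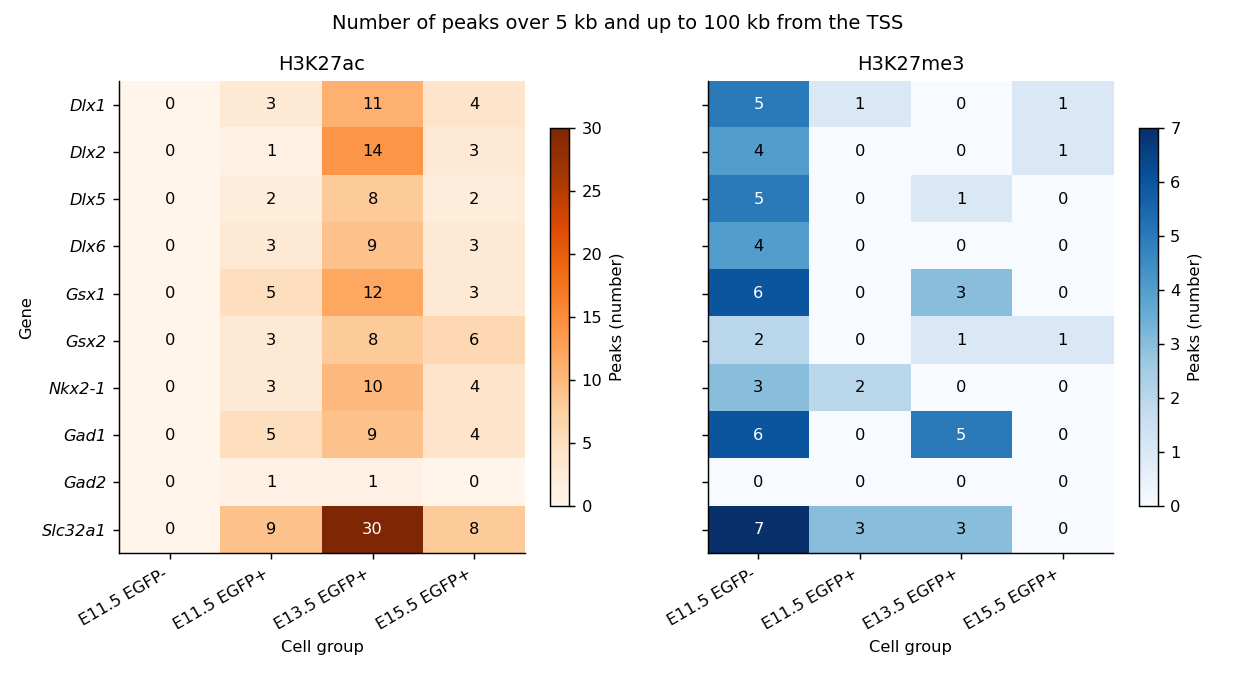
Number of peaks over 5 kb and up to 100 kb from the TSS (colour and printed number) of each gene (rows) in each cell group (columns), for H3K27ac (left) and H3K27me3 (right), on separate colour scales. Slc32a1 has 30 H3K27ac peaks in the E13.5 list and Gad2 has at most 1 in any list.

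Slc32a1 had the most distal H3K27ac peaks of the 10 genes at each stage, 9, 30 and 8, and Gad2 the fewest at E13.5 and E15.5, 1 and 0. Gsx1 had 5, 12 and 3, Gsx2 3, 8 and 6, and Nkx2-1 3, 10 and 4 by stage. The partners of a Dlx pair share most of their window. Of the 17 E13.5 H3K27ac peaks within 100 kb of Dlx1 or Dlx2, 14 lay in both windows, and of the 12 near Dlx5 or Dlx6 all 12 did. Gad1 had 5, 9 and 4, of which 3, 3 and 1 lay within 5 kb of the TSS of another gene (Sp5, and at E13.5 Erich2 as well).

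Many distal peaks may belong to other genes. Over the 10 genes, 15 of 35 distal H3K27ac peaks at E11.5, 35 of 112 at E13.5 and 14 of 37 at E15.5 lay within 5 kb of another protein-coding TSS, a peak near several of these genes being counted once for each. Those genes were Metap1d beside Dlx1 and Dlx2, Sdhaf3 beside Dlx5 and Dlx6, Pdx1 beside Gsx1, Chic2 and Pdgfra beside Gsx2, Nkx2-9 beside Nkx2-1, and Actr5, Arhgap40 and Ppp1r16b beside Slc32a1, apart from the Dlx partners and the neighbours of Gad1. Chic2 had H3K27ac at its own TSS at all 3 stages of EGFP+ cells, while Gsx2 had it at E11.5 alone. Counting only peaks for which the gene itself has the nearest TSS left 5, 35 and 13 H3K27ac peaks by stage, at 4 of the 10 genes at E11.5. The share of all genes under this rule was not counted.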

How the data were processed

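H3K27ac and H3K27me3 were profiled by ChIP-seq in 15 ChIP samples of 8 groups, with 8 input samples of 4 groups. The authors deposited 1 BED list of MACS peaks per ChIP group, on mm10, and the submitters' processing notes name Bowtie 1.1.2. The MACS version, pooling of replicates and use of the input as control are not given in the sources used here. The deposited score column was 0 for every peak, so no height, enrichment or p-value could be used. No list gives read counts, so depth is unknown and no precision can be stated from it.

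Genes were those of GENCODE M21 on GRCm38, with the gene's 5′ end as TSS. Starts were read as counted from 0, and positions are given counted from 1. A peak counted as a TSS peak within 5 kb and as distal over 5 kb and up to 100 kb away, and peaks overlapped at 1 bp or more. Sites are overlapping TSS peaks joined. The counting was checked on simulated peaks (Python 3.11.15, numpy 2.4.6, pandas 2.3.3). Named genes were all 10, with genes of the preset lists named when H3K27ac was at all 3 stages or no list marked them, and a few others as examples chosen after their values were seen. A few genes of the lists are counted but not reported by name here. The genes and lists were chosen with earlier results of these data known. With 1 list per group no test was made. Other settings tried were TSS windows of 1 kb and 10 kb, any annotated start, only peaks 300 bp wide or more, only the widest peaks, a distal limit of 50 kb, peaks near no other TSS, nearest TSS only, merging within 1 kb, and a 50% reciprocal overlap. The RefSeq start was added after seeing the data.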

Additional observations from a re-analysis of the deposited data

How the results depend on the processing

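Of 166 alternative values of 46 counts, 115 stayed within 1.5 times the reported count and 51 did not, and the cause was not tested. A TSS window of 1 kb left H3K27me3 at 0 genes in E11.5 EGFP+ cells (background 1.89%) and at 2 at E13.5 (background 5.34%). Both marks were listed at 0 and 2 genes in these groups (1.22% and 4.36% of all TSS). Neither mark was listed at 5 genes in E11.5 EGFP- cells (63%) and at 4 at E13.5 (54.5%). With 10 kb, neither mark was found at 1 gene in E11.5 EGFP- cells (42.2% of all TSS) and at 1 at E13.5 (28.6%). Any annotated start (31.9%) or the RefSeq start (8 genes matched, chosen after seeing the data) also gave 1 at E13.5. Peaks of at least 300 bp gave H3K27ac at 4, 4 and 0 genes in EGFP+ cells by stage (backgrounds 28.9%, 23% and 42.6%). H3K27me3 was listed there at 0 at E11.5 (background 0.242%) and 0 at E13.5 (background 0.62%). Both marks thus met at 0 genes in each (0.15% and 0.419% of all TSS), and neither was found at 6 and 6 (71% and 76.8%). With the widest peaks only, each list was cut to as many as in the shortest list of the mark. H3K27ac was then listed at 0, 0 and 0 genes by stage (backgrounds 6.25%, 1.39% and 6.87%). H3K27me3 was listed at 0 in the E11.5 EGFP- and EGFP+ groups (backgrounds 2.98% and 1.34%) and at 4 at E13.5 (background 2.68%). Both marks met at 0 and 0 genes at E11.5 and E13.5 of EGFP+ cells (0.123% and 0.178% of all TSS). Neither was found at 10 and 10 in the E11.5 groups (93.3% and 92.5%) and at 6 at E13.5 (96.1%).

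Distal counts moved as follows. A limit of 50 kb left 6 genes with H3K27ac at E11.5 and 1 with H3K27me3 at E15.5. Peaks of at least 300 bp left 6 and 3 genes with H3K27ac at E11.5 and E15.5, and 5, 0, 1 and 0 with H3K27me3 in E11.5 EGFP- cells and then EGFP+ cells by stage. The widest peaks left 0, 2 and 0 genes with H3K27ac by stage, and 0, 1 and 3 with H3K27me3 in the E11.5 EGFP-, E11.5 and E13.5 EGFP+ lists. Leaving out peaks near another TSS left 3 genes with H3K27me3 at E13.5, and nearest-TSS peaks left 4 with H3K27ac at E11.5 and 0, 3 and 1 with H3K27me3 by stage. Merging peaks within 1 kb moved the bases under E13.5 H3K27me3 at the TSS from 1.19 kb to 2.11 kb. A reciprocal overlap of 50% left 0 of the E11.5 EGFP- H3K27me3 peaks overlapped by E15.5 H3K27ac and 3 of the 11 E11.5 H3K27ac peaks overlapped at E13.5.

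No paired analysis was possible because a single list was given per group, with no list per replicate. No replicate was left out, since no list belongs to a single replicate of a pair, and no stricter score was set, since all scores are 0. Depth is unknown, and an unlisted peak is not an absent mark.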

Other observations

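Genes with the same marking over the 8 lists were counted, and some of those on the gene lists are named. Nkx2-1 shared its pattern with 205 other genes (0.934% of all). These include Slc32a1, the ventral or interneuron factors Sp9, Nkx2-4 and Npas1, and Ebf2 itself, whose regulatory sequence drives the EGFP used for sorting. Ebf2 thus had H3K27me3 at E13.5 and no TSS peak of H3K27ac at E15.5, in cells sorted by this EGFP. Gsx1 shared its pattern with 659 other genes (3%), among them the dorsal factor Emx2, the CR cell factor Ebf3 and the ventral factors Olig1, Olig2 and Maf. Dlx2 shared its pattern with 302 genes (1.38%), among them Lhx6. Dlx5 shared its pattern with 1376 genes (6.27%), among them Hes5, Tubb3 and Fezf2. Gad2 shared its own with 673 (3.07%), among them the non-neural factors Foxa2 and Gata4. Dlx1 shared its pattern with 868 genes (3.96%), among them Isl1, the muscle factor Myog and the endothelial gene Cdh5, and Dlx6 with 126 (0.574%), among them Sox17. Each pattern thus held genes of several kinds, and no test was made.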
